A study of Homo sapiens with 6 samples.

Results

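The genes described here encode the human proteasome: its subunits, its activators and the chaperones that assemble it. They were taken by symbol, as every gene named PSMA, PSMB, PSMC, PSMD, PSME or PSMG with a number, leaving out pseudogenes and antisense genes. RefSeq holds 47 such genes, and 41 of them were among the 19775 genes measured here by probe sets that carry a single gene symbol. The other 6 were not analysed here. PSMA6 and PSME2 have only probe sets that carry several symbols, and PSMB11, PSMC5, PSMD7 and PSMD13 were not found under a probe set with 1 symbol. The 41 measured genes had 77 probe sets. The inducible catalytic genes PSMB8, PSMB9 and PSMB10 were set apart, which left 38 genes, called constitutive below.

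The samples were cells of MCF10A, an immortal but non-tumorigenic line established from human breast epithelium. Dishes of 35 mm received 6 different numbers of cells, namely 50K, 100K, 200K, 400K, 600K and 800K (K for kilo), and RNA was harvested 24 h later. All 6 groups had the same medium, DMEM/F12 with horse serum, EGF, hydrocortisone, cholera toxin, insulin and gentamicin, so the number of cells plated is the only labelled difference. One Affymetrix HG-U133 Plus 2 array was run per density, so there are no replicates, and every p-value of a single gene below rests on how far the 6 arrays lie from its fitted line. Deposited values are ratios to the 50K array. They are given here as log2 ratios, which are 0 at 50K by construction and carry no absolute level, so signal over background is unknown and no level can be compared between genes.

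The median ratio of an array, over the probe sets that are no controls, ranged from 1.013 to 1.036 outside the 50K array. Of 6 measured markers of basal breast epithelium, 3 rose with density and 1 fell. KRT14, which rose, had a slope of 0.42 ± 0.020 log2 units per doubling of the cells plated (SE). For comparison, 8.93% of all 19775 genes rose and 12.4% fell. Among markers of other cells, 1 of 7 fibroblast, 2 of 5 endothelial, 1 of 4 leukocyte and 0 of 4 adipocyte genes rose, and none of these 20 fell. The exceptions were DCN, PECAM1, KDR and CD14, with CD14 the steepest at 0.74 ± 0.081. Ratios give no summed marker level and do not show which markers are at 0, so the labelled cell type could not be checked by level, and the part of these genes in the results below was not tested. In bulk RNA, fewer cells of a kind and less RNA per cell cannot be told apart.

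The proteasome degrades proteins that carry ubiquitin chains. Its barrel, the 20S core, is built from rings of alpha subunits, which form the gate, and rings of beta subunits, of which PSMB5, PSMB6 and PSMB7 cut peptide bonds. In cells exposed to interferon, PSMB8, PSMB9 and PSMB10 replace these in newly made particles, the immunoproteasome. The 19S regulatory particle, a base with a ring of ATPases and a lid, binds ubiquitin chains, removes them and threads the substrate into the core, whereas activators of the PSME genes open the gate without ubiquitin. Dedicated chaperones assemble core and base and then leave.

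Most measured genes of the 19S particle fell with density, whereas most of the 20S core did not pass the test. Across all roles, 15 of the 41 genes fell with density, 1 rose and 25 did not pass the test (limma, Benjamini-Hochberg adjusted over all genes, threshold 0.05). Over all 19775 genes, 12.4% fell and 8.93% rose. Of the 14 measured 19S genes, 9 fell and 5 did not pass. Of the 14 measured constitutive 20S genes, 2 fell and 12 did not pass. Without probe sets marked for possible cross-hybridisation, PSMC4, PSMD2 and PSMD11 of the 19S genes still passed, and PSMD4 and PSMD6 did not. PSMC1, PSMC3, PSMD1 and PSMD12 had no other probe set, nor had PSMA7 of the 20S core, while PSMB7 still passed. Only PSMC1, PSMC3, PSMC4 and PSMD2 of all these kept the call without each array in turn. The median log2 ratio at 800K was −0.53 for the 19S genes and −0.070 for the constitutive 20S genes, beside 0.029 for all genes. The median slope per doubling of the cells plated was −0.13 for the 19S genes, −0.019 for the constitutive 20S genes, −0.051 for all 38 constitutive genes and 0.0045 for all genes. The difference between 19S and 20S genes is a description, as the members were not treated as replicates.

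**Figure D1:**
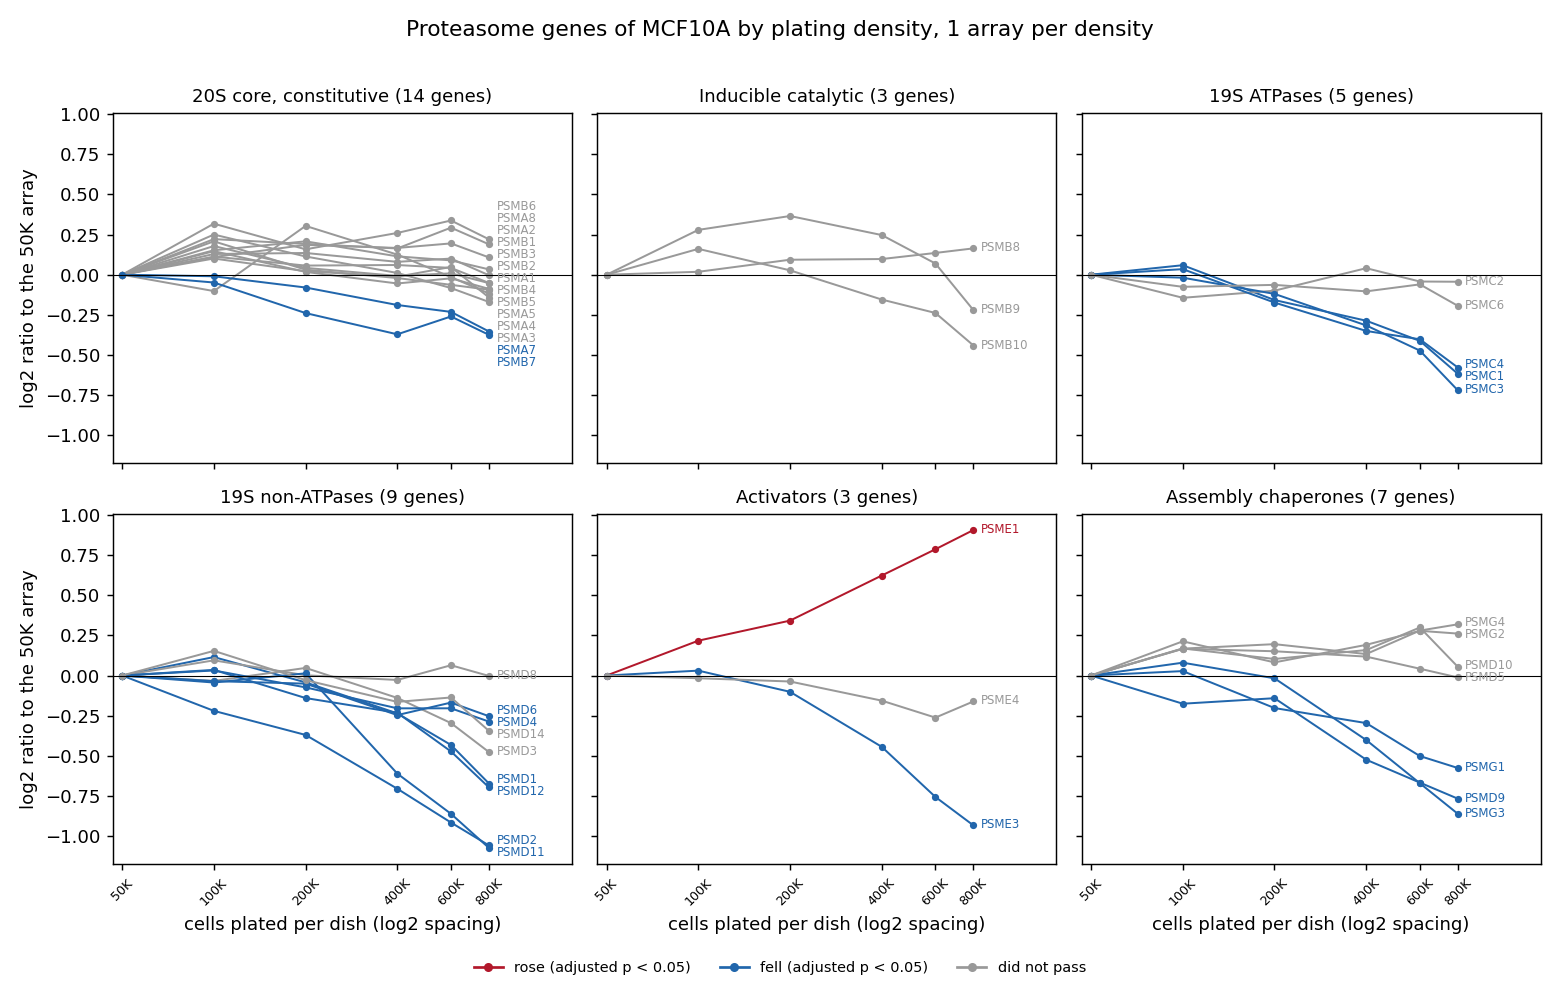
Log2 ratio to the 50K array (vertical axis) against cells plated per dish (horizontal axis, log2 spacing) for the 41 measured genes, in 6 panels by role, with 1 line per gene and 1 point per array. Blue lines fell, the red line rose and grey lines did not pass; most 19S lines end between −1.07 and −0.19 at 800K, and the 20S core lines end between −0.37 and 0.22.

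The lowest values lay mostly on the 800K array. At 800K, 9 genes were at least 1.5-fold below 50K (7.75% of all genes) and 1, PSME1, was at least 1.5-fold above it (5.97% of all genes). The lowest of the 6 arrays was the 800K array for 29 of the 41 genes (19.3% of all genes), and the highest was the 100K array for 18 (25.4% of all genes). At 100K, 29 of the 41 genes lay above their 50K value, as did 12895 of all 19775 genes. A value lower on each array than on the one before was seen for PSMA7, PSMC3 and PSMD2 (3.53% of all genes), and a value higher on each array for PSMB8 and PSME1 (2.93% of all genes).

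Among the 7 measured alpha ring genes, PSMA7 fell and the other 6 did not pass. PSMA7, the alpha4 subunit, had log2 ratios of −0.0097, −0.080, −0.19, −0.23 and −0.35 at 100K, 200K, 400K, 600K and 800K. Its slope was −0.085 ± 0.016 (SE, adjusted p = 0.0156), which made it 1.28-fold lower at 800K than at 50K. The fall was stepwise over all densities, but its adjusted p was 0.0642 without the 800K array. PSMA3, the alpha7 subunit, had 0.25, 0.11, 0.011, −0.083 and −0.17 in the same order, a peak at 100K followed by a decline (slope −0.061 ± 0.031, adjusted p = 0.251). The height of this peak came mostly from 1 probe set, with 0.69 at 100K, while the others had 0.088 and −0.031 there. PSMA5, the alpha5 subunit, had −0.10, 0.30, 0.13, −0.015 and −0.12, and its probe sets disagreed, 1 with a negative slope of −0.12 and 1 with a positive slope of 0.10. Slopes were −0.027 for PSMA1, −0.027 for PSMA4, 0.031 for PSMA2 and 0.042 for PSMA8, the alpha subunit of spermatogenic cells.

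Of the 4 measured beta genes without a catalytic site in the constitutive core, PSMB1, PSMB2, PSMB3 and PSMB4, none passed, at slopes between −0.034 and 0.00099. The steepest, PSMB4 (beta7), had log2 ratios of 0.15, 0.018, −0.055, −0.023 and −0.088 from 100K to 800K. PSMB2 (beta4) had 0.11, 0.057, 0.060, 0.042 and −0.051 on the same arrays. PSMB1 (beta6) had 0.15, 0.21, 0.11, 0.089 and 0.033, above its 50K value throughout as the mean of 3 probe sets. One of these had 0.63 at 200K and 0.23 at 800K. The others had 0.011 and −0.021 at 200K, and 0.0056 and −0.14 at 800K. Each of the 4 was highest at 100K or 200K, and the 800K array was the lowest for all but PSMB1.

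The 3 constitutive catalytic genes did not move together. PSMB7 (beta2, the trypsin-like site) had log2 ratios of −0.049, −0.24, −0.37, −0.26 and −0.37 from 100K to 800K. It fell with a slope of −0.094 ± 0.019 (adjusted p = 0.0202) and ended 1.30-fold lower at 800K than at 50K. Its values levelled off from 400K on, and the call was lost without the 50K, 100K or 800K array (adjusted p = 0.107 without 50K). Tested alone, the probe sets of PSMB7 had slopes of −0.051 ± 0.019 (adjusted p = 0.133) and −0.14 ± 0.024 (adjusted p = 0.0184). At 800K they had log2 ratios of −0.18 and −0.57 in the same order. Only the steeper probe set passed, and the slope of the other was close to that of PSMB5. PSMB5 (beta5, the chymotrypsin-like site) had 0.21, 0.031, −0.021, −0.063 and −0.093, highest at 100K and declining from there (slope −0.044 ± 0.024, adjusted p = 0.284). PSMB6 (beta1, the caspase-like site) had 0.32, 0.16, 0.26, 0.34 and 0.22, so that all 5 arrays lay above 50K, and its slope of 0.048 ± 0.028 did not pass (adjusted p = 0.329).

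The 3 inducible catalytic genes each took a different course, and none passed. PSMB8 (beta5i), on chromosome 6 within the major histocompatibility complex at chr6:32840717-32844679 (GRCh38.p14), had log2 ratios of 0.018, 0.093, 0.098, 0.14 and 0.16 from 100K to 800K. Each array was higher than the one before, with a slope of 0.040 ± 0.012 and an adjusted p of 0.0583. PSMB9 (beta1i), its neighbour at chr6:32854192-32859851, had 0.28, 0.37, 0.25, 0.070 and −0.22, a hump that peaked at 200K and ended below 50K. Its line had a slope of −0.046 ± 0.055 (adjusted p = 0.679), which does not describe the hump. PSMB10 (beta2i), on chromosome 16, had 0.16, 0.027, −0.15, −0.24 and −0.44, highest at 100K and 1.36-fold lower at 800K than at 50K. Its slope of −0.12 ± 0.033 had an adjusted p of 0.0548. PSMB10 passed with arrays centred on their medians (0.0480), on the cell number itself (0.00726), on its rank (0.0256) and without the 50K array (0.0136). It did not pass without probe sets marked for possible cross-hybridisation (0.0717). Nor did it pass without the 100K, 200K, 400K, 600K or 800K array (adjusted p between 0.0708 and 0.190).

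Each inducible gene was set against the subunit whose place it takes, by the slope of the difference of their log2 ratios with an exact two-sided permutation test over the 720 orders of the cell numbers, adjusted over 4 pairs. The 720 orders limit how small this p can be. PSMB8 minus PSMB5 had a slope of 0.084 ± 0.029 (exact p = 0.0389, adjusted p = 0.0778), with differences of −0.19, 0.062, 0.12, 0.20 and 0.26 from 100K to 800K. At 800K this ratio was 1.20-fold its 50K value, but it was below that value at 100K. PSMB9 minus PSMB6 had a slope of −0.094 ± 0.056 (exact p = 0.168, adjusted p = 0.224), and PSMB10 minus PSMB7 one of −0.022 ± 0.043 (exact p = 0.626, adjusted p = 0.626). None of these 3 pairs passed after adjustment, and their slopes had both signs.

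**Figure D2:**
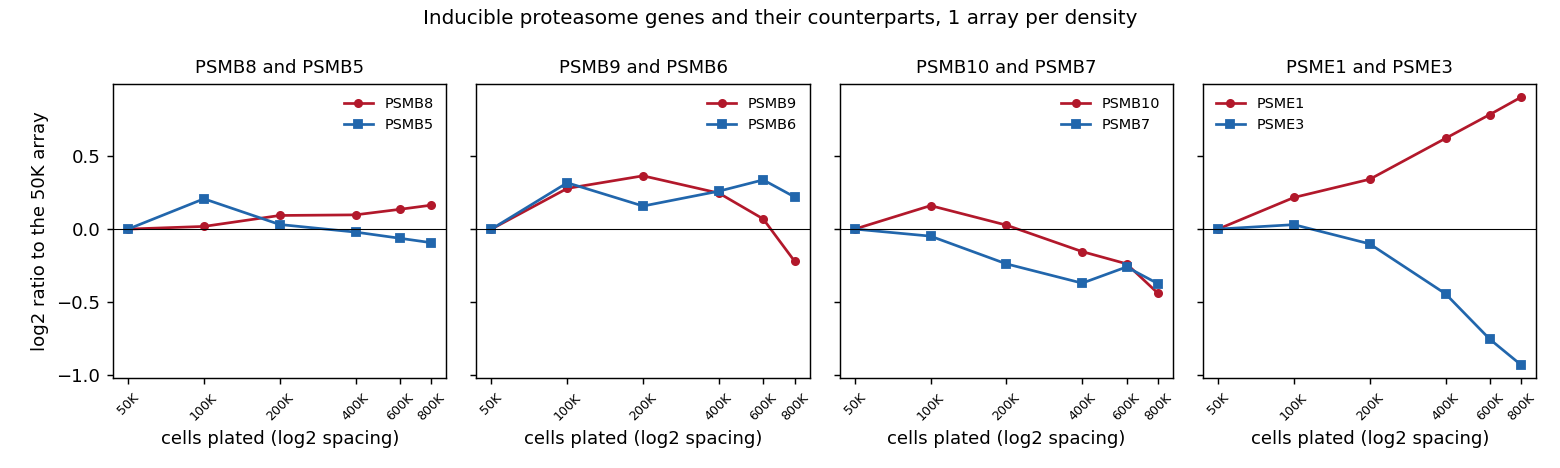
Log2 ratio to the 50K array against cells plated per dish (log2 spacing) for the 3 inducible catalytic genes with their constitutive counterparts and for PSME1 with PSME3, 1 point per array. The PSME1 line ends at 0.91 and the PSME3 line at −0.93, while the lines of the catalytic pairs cross or run close together.

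Of the 5 measured ATPases of the 19S base, PSMC1, PSMC3 and PSMC4 fell and PSMC2 and PSMC6 did not pass. Their median slope was −0.15. PSMC3 (RPT5) had log2 ratios of −0.018, −0.12, −0.32, −0.47 and −0.72 from 100K to 800K. It was lower at each step, with a slope of −0.17 ± 0.030 (adjusted p = 0.0130), and 1.65-fold lower at 800K than at 50K. PSMC1 (RPT2) had 0.059, −0.16, −0.29, −0.41 and −0.62 (slope −0.15 ± 0.026, adjusted p = 0.0120), and PSMC4 (RPT3) had a slope of −0.15 ± 0.022 (adjusted p = 0.00742). These 3 genes left the 50K value between 100K and 200K and ended between 1.49-fold and 1.65-fold below it, and their calls held without each array in turn. PSMC1 and PSMC3 were each read by 1 probe set of a kind marked for possible cross-hybridisation, which touches 2 of the 3 calls. PSMC2 (RPT1) had −0.14, −0.099, 0.041, −0.042 and −0.044 as the mean of 3 probe sets. One of these had a slope of −0.12 ± 0.019 and the others 0.045 ± 0.018 and 0.099 ± 0.063, so the mean of 0.0088 hides a disagreement. PSMC6 (RPT4) had a slope of −0.031.

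The 250 bases upstream of PSMC3, whose gene lies on the minus strand of chromosome 11, are shown as one of the 6 promoters printed here, those of the called genes with the steepest slopes that have a window in RefSeq's promoter table (GRCh38.p14). All are written 5′ to 3′ on the gene's strand and end at the base before the annotated start. Capitals mark matches on either strand to any of 5 motifs: the antioxidant response element core TGACNNNGC, CCAAT, the ETS core CGGAAG, the interferon regulatory factor element GAAANNGAA and the gamma-activated site TTCNNNGAA. Its window, chr11:47426440-47426689, holds 1 CCAAT match that begins 114 bases upstream.
PSMC3: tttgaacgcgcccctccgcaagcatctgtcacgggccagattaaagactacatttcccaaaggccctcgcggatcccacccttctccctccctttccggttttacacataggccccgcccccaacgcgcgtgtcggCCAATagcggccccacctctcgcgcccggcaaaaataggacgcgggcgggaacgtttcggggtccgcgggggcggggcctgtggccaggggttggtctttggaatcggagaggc

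Among the non-ATPase genes of the 19S particle, 6 of 9 fell (PSMD1, PSMD2, PSMD4, PSMD6, PSMD11 and PSMD12), and all 9 slopes were negative. PSMD11 (RPN6, a lid subunit that holds the regulatory particle to the core) had log2 ratios of −0.044, 0.014, −0.61, −0.86 and −1.07 from 100K to 800K. It stayed at its 50K value up to 200K and dropped between 200K and 400K. Its slope was −0.28 ± 0.055 (adjusted p = 0.0173) and it ended 2.11-fold lower at 800K than at 50K. PSMD2 (RPN1, a large base subunit that docks ubiquitin receptors) had −0.22, −0.37, −0.71, −0.92 and −1.06. In contrast to PSMD11, it was lower from the first step on and at every step, with a slope of −0.26 ± 0.019 (adjusted p = 0.00117) and a 2.08-fold lower value at 800K than at 50K.

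PSMD1 (RPN2, the other large base scaffold) and the lid subunit PSMD12 (RPN5) fell with slopes of −0.17 ± 0.038 (adjusted p = 0.0266) and −0.17 ± 0.033 (adjusted p = 0.0185). At 800K they were 1.59-fold and 1.62-fold below 50K. PSMD12 was the mean of 2 unlike probe sets, with slopes of −0.27 ± 0.041 (adjusted p = 0.0126) and −0.062 ± 0.030 (adjusted p = 0.242). These probe sets had log2 ratios of −1.10 and −0.30 at 800K, and only the steeper passed alone. The falls of PSMD4 (RPN10, a ubiquitin receptor) and PSMD6 (RPN7, a lid subunit) were small, with slopes of −0.078 ± 0.016 and −0.065 ± 0.017 and values 1.22-fold and 1.19-fold lower at 800K than at 50K. PSMD4 was read by 4 probe sets, of which 3 had slopes between −0.11 and −0.10 and the fourth a slope of 0.0083. PSMD3 (RPN3) had a slope of −0.11 (adjusted p = 0.0655) and PSMD14 (RPN11, the enzyme that cuts ubiquitin chains off) one of −0.090 (adjusted p = 0.0700), and neither passed. PSMD8 (RPN12) had log2 ratios of 0.095, 0.0015, −0.028, 0.064 and −0.0028 from 100K to 800K and was the non-ATPase gene nearest to no change. The calls of PSMD1, PSMD11 and PSMD12 were lost without the 100K, 600K or 800K array (adjusted p between 0.0534 and 0.0863), that of PSMD4 without 600K or 800K, and that of PSMD6 without any 1 of the 6 arrays.

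The upstream windows of the 2 steepest genes, PSMD11 (plus strand, chr17:32444260-32444509) and PSMD2 (plus strand, chr3:184298991-184299240), hold no match to the 5 motifs, which says only that these letters are not in these windows.
PSMD11: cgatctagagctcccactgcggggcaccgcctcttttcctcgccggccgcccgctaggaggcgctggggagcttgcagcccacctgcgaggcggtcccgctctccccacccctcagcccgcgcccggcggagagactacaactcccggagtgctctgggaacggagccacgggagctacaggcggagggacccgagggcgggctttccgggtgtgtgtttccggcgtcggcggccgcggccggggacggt
PSMD2: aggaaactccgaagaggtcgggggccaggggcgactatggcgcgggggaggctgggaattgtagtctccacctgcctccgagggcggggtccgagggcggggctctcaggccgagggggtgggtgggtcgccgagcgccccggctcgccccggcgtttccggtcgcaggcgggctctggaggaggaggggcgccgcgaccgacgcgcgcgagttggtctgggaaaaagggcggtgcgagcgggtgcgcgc

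The activators PSME1 and PSME3 moved in opposite directions. PSME1 (PA28 alpha, which pairs with PSME2 in the interferon-inducible activator of the cytoplasm) had log2 ratios of 0.22, 0.34, 0.62, 0.79 and 0.91 from 100K to 800K. It rose at every step, with a slope of 0.22 ± 0.016 (adjusted p = 0.00103), and ended 1.87-fold higher at 800K than at 50K. PSME3 (PA28 gamma, which forms an activator of its own in the nucleus) had 0.030, −0.10, −0.44, −0.76 and −0.93. It stayed near its 50K value up to 200K and fell from there, with a slope of −0.24 ± 0.042 (adjusted p = 0.0118) and a 1.91-fold lower value at 800K than at 50K. All 4 of its probe sets fell, with slopes between −0.27 and −0.21, though each is of a kind marked for possible cross-hybridisation.

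PSME1 minus PSME3 had a slope of 0.47 ± 0.061 (exact p = 0.00556, adjusted p = 0.0222 over the 4 pairs), with differences of 0.19, 0.44, 1.07, 1.54 and 1.84 log2 units from 100K to 800K. The ratio of the 2 genes was 3.58-fold its 50K value at 800K. The adjusted p was 0.0667 without the 600K or the 800K array (exact p = 0.0167 in each). PSME4 (PA200, a large single-chain activator) had −0.017, −0.037, −0.16, −0.26 and −0.16 and did not pass (slope −0.059 ± 0.017, adjusted p = 0.0593). Its 3 probe sets had slopes of −0.13, −0.089 and 0.047. The pair PSME2 and PSME3 could not be compared, as PSME2, which lies close to PSME1 on chromosome 14, was not analysed here.

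The upstream windows of the 2 activators show no motif in common. That of PSME1 (plus strand, chr14:24135944-24136193) holds 1 antioxidant response element core beginning 86 bases upstream. That of PSME3 (plus strand, chr17:42833147-42833396) holds 1 gamma-activated site 230 bases upstream and 1 CCAAT match on the minus strand 12 bases upstream.
PSME1: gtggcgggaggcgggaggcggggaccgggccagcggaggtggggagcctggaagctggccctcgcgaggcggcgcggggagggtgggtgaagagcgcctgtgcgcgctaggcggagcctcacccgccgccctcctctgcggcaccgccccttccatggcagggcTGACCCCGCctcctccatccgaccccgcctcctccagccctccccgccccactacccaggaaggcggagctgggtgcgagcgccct
PSME3: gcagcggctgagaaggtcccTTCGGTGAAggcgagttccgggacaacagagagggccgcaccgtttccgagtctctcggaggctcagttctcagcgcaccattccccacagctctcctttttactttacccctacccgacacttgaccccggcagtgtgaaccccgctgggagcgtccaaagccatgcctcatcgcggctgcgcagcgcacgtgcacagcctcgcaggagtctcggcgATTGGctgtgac

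The 7 assembly chaperones divided, 3 falling and 4 not passing. PSMG3, which with PSMG4 guides alpha ring assembly, had log2 ratios of 0.080, −0.017, −0.40, −0.67 and −0.86 from 100K to 800K. Its fall, which began after 200K, gave a slope of −0.23 ± 0.045 (adjusted p = 0.0181) and a 1.82-fold lower value at 800K than at 50K, and the call was lost without the 100K, 600K or 800K array. PSMD9 (p27, a chaperone of the ATPase ring) had −0.18, −0.14, −0.52, −0.67 and −0.77, and ended 1.70-fold lower at 800K than at 50K (slope −0.19 ± 0.027, adjusted p = 0.00659). PSMG1, which pairs with PSMG2, fell with a slope of −0.15 ± 0.022 (adjusted p = 0.00710) and ended 1.49-fold lower at 800K than at 50K. In both chaperone pairs the partner did not pass: PSMG2 had a slope of 0.055 ± 0.021 (adjusted p = 0.119) and PSMG4 one of 0.063 ± 0.019 (adjusted p = 0.0648). The difference within these pairs was not tested. PSMG4 owed its slope mostly to 1 of its 5 probe sets, with a slope of 0.27, while the others had slopes between −0.027 and 0.057. PSMD5, a chaperone of the base, had 0.17, 0.15, 0.12, 0.042 and −0.012, near its 50K value at the end. That last value is the mean of 2 opposed probe sets, with −0.23 and 0.21 at 800K and slopes of −0.066 and 0.045. PSMD10 (gankyrin, also a chaperone of the base) had a slope of 0.030.

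The upstream window of PSMD9 (plus strand, chr12:121888540-121888789) carries the most matches of the 6 shown, with 2 antioxidant response element cores 149 and 102 bases upstream and 2 ETS cores 166 and 109 bases upstream.
PSMD9: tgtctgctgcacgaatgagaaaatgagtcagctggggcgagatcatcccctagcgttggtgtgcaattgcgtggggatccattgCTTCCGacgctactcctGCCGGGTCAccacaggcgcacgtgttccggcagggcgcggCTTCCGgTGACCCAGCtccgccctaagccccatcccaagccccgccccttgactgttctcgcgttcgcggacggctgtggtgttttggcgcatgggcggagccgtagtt

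**Figure D3:**
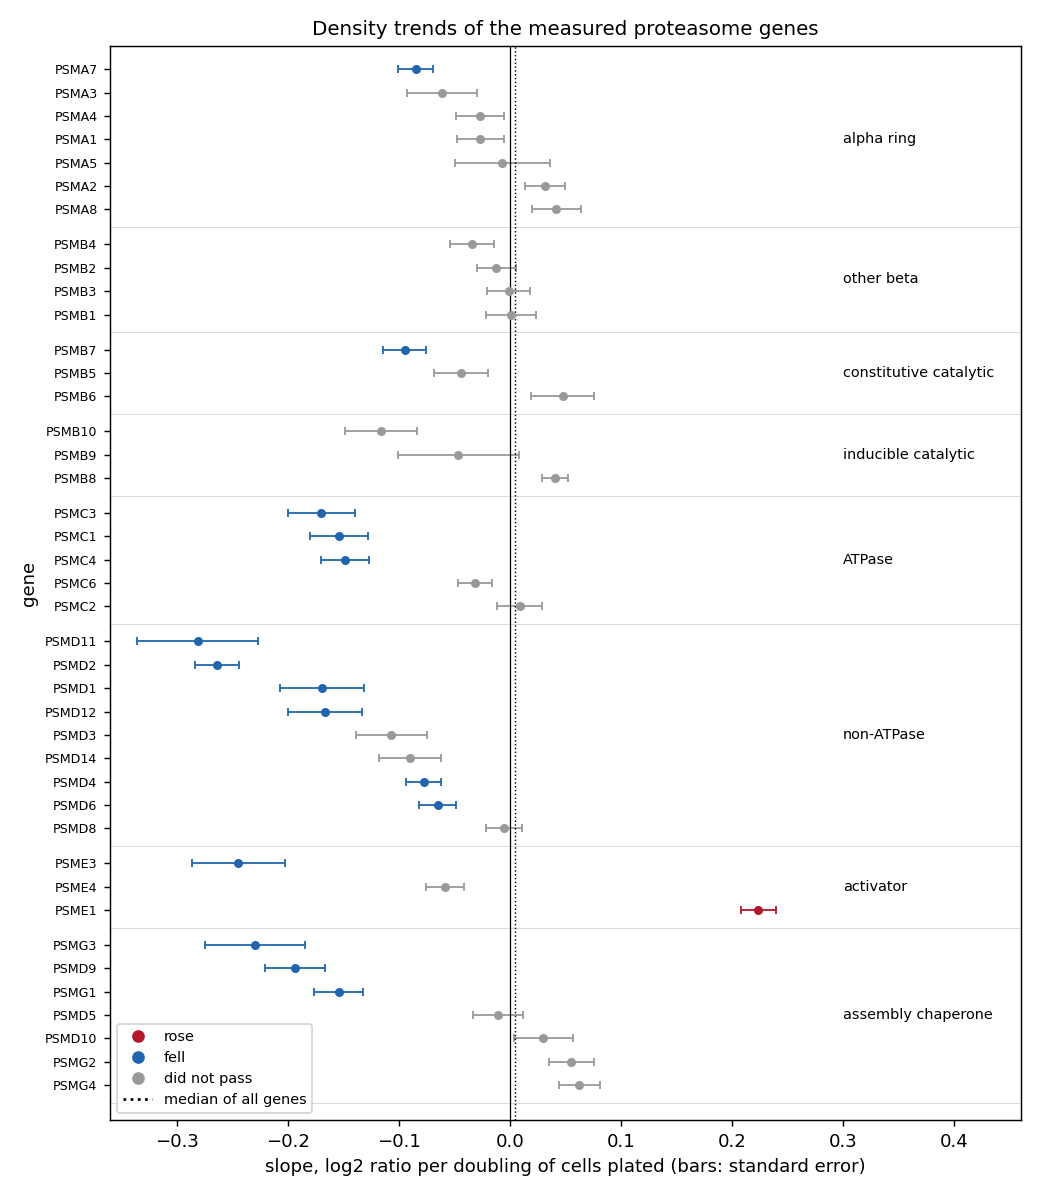
Slope of the log2 ratio per doubling of cells plated (horizontal axis) with its standard error for the 41 measured genes (vertical axis), grouped by role. PSME1 stands alone on the right at 0.22, and the 15 genes that fell lie between −0.28 and −0.065, left of the dotted median of all genes.

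No gene passed the test for curvature after adjustment, 0.0% of the 19775 genes (limma, quadratic term). At an unadjusted p under 0.05, 14 of the 41 proteasome genes curved, against 12.6% of all genes, and 37 of the 41 quadratic terms were negative, that is, bent downward at high density, as were 12190 of all 19775. The 2 smallest p-values were those of PSMB9 (quadratic term −0.45, adjusted p = 0.125) and PSMG3 (−0.37, adjusted p = 0.132). PSMB9 peaked at 200K, whereas PSMG3 was flat and then fell.

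Of the 21 genes with several probe sets, 13 had slopes of 1 sign in all of them and 8 had both signs: PSMA5, PSMB1, PSMB2, PSMC2, PSMD4, PSMD5, PSME4 and PSMG4. Among the 16 genes that passed, PSMD4 was the only one with both signs, and 7 rested on 1 probe set. Leaving out probe sets marked for possible cross-hybridisation removed 9 of the 41 genes, among them 7 that had passed (PSMA7, PSMC1, PSMC3, PSMD1, PSMD9, PSMD12 and PSME3). Of the other 9, PSMB7, PSMC4, PSMD2, PSMD11, PSME1, PSMG1 and PSMG3 passed without them, PSMD6 had an adjusted p of 0.0515, and PSMD4 had a slope of 0.0083 (adjusted p = 0.895). Counting by array, 8 of the 16 kept their call when each array was left out in turn (PSMC1, PSMC3, PSMC4, PSMD2, PSMD9, PSME1, PSME3 and PSMG1), and all 16 kept their sign.

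Upstream windows were available for 35 of the 41 measured genes. The ETS core was in 18 of these (51.4%), against 21.7% of 15842 windows of protein-coding genes and 16.8% of all 27305 windows. It was in 6 of 11 genes that fell and in 12 of 23 that did not pass. The antioxidant response element core was in 10 of 35 (28.6%), against 11.5% of protein-coding windows and 11.03% of all windows. CCAAT was in 15 of 35 (42.9%, against 34.5% and 33.0%), the gamma-activated site in 5 (14.3%, against 6.12% and 6.78%) and the interferon regulatory factor element in 4 (11.4%, against 6.09% and 7.06%). Motifs were searched on both strands, and a match of the last 2 can share letters with the other.

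Factors that work with the proteasome moved in both directions: 7 of 18 measured partners fell, 1 rose and 10 did not pass. ADRM1 (a ubiquitin receptor of the 19S particle) fell with a slope of −0.18 ± 0.024 (adjusted p = 0.00584) and VCP, the ATPase that unfolds ubiquitinated proteins, with −0.16 ± 0.015 (adjusted p = 0.00222). The others that fell were PITHD1, UBQLN1, USP14, PSMF1 and UBE3C. TXNL1, a thioredoxin-like protein bound to the 19S particle, rose with a slope of 0.22 ± 0.043 (adjusted p = 0.0175, and 0.0589 at the highest when 1 array was left out). POMP, the chaperone that matures the core, had a slope of −0.016 (adjusted p = 0.835).

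Of 7 measured regulators of proteasome genes, NFE2L1 rose, MAFG fell and 5 did not pass. NFE2L1, the transcription factor known to raise proteasome genes when the particle is inhibited, had a slope of 0.15 ± 0.020 (adjusted p = 0.00538), opposite in sign to the 15 genes that fell. MAFG, a small Maf partner of such factors, had −0.086 ± 0.018 (adjusted p = 0.0227). Among 3 measured genes of ubiquitin and its activating enzymes, UBB (slope −0.11 ± 0.013, adjusted p = 0.00399) and UBA1 (slope −0.046 ± 0.012, adjusted p = 0.0432) fell.

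Of 12 measured genes of MHC class I antigen presentation, which loads the peptides that proteasomes make, 6 rose, 0 fell and 6 did not pass. HLA-E had the steepest slope, 0.17 ± 0.035 (adjusted p = 0.0199), followed by HLA-B with 0.15 ± 0.019 (adjusted p = 0.00552), and HLA-C, HLA-F, ERAP2 and IRF1 also rose. TAP1, the peptide transporter gene near PSMB8 and PSMB9, had a slope of 0.031 (adjusted p = 0.419), and B2M stayed flat with 5.3e-06. TAP2, the other peptide transporter gene of the list, had its lowest slope, −0.11 (adjusted p = 0.0665). The median slope of the list was 0.097. Beside it, slopes were 0.22 for PSME1, 0.040 for PSMB8, −0.046 for PSMB9 and −0.12 for PSMB10.

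Other complexes served for comparison. In the COP9 signalosome, a complex with the architecture of the 19S lid, 2 of 9 genes fell, GPS1 with a slope of −0.17 ± 0.021 (adjusted p = 0.00487) and COPS6 with −0.12 ± 0.016 (adjusted p = 0.00607), and the list had a median of −0.060. In the CCT chaperonin, a folding chamber of the cytosol, 5 of 7 fell, CCT2 with −0.17 ± 0.027 (adjusted p = 0.00950) and CCT4 with −0.15 ± 0.020 (adjusted p = 0.00557), and the list had a median of −0.10. The CCT median lay close to the 19S median of −0.13. Of the genes of these 6 lists that passed, ADRM1, VCP, NFE2L1, UBB, HLA-B, HLA-C, HLA-F, GPS1, COPS6, CCT2 and CCT4 also passed without each array in turn. The others lost the call without at least 1 array, with an adjusted p of up to 0.167.

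**Figure D4:**
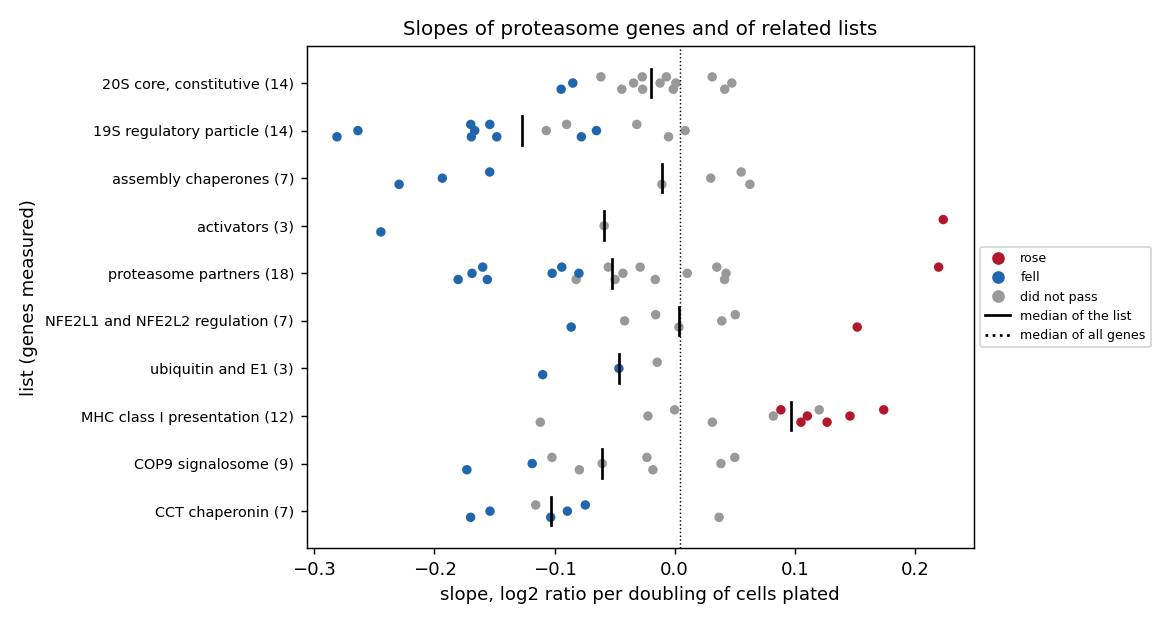
Slopes of the log2 ratio per doubling of cells plated (horizontal axis) for the constitutive proteasome genes by part and for 6 related lists (vertical axis, with the number measured), 1 point per gene; short bars are list medians. The 19S and CCT medians lie at −0.13 and −0.10, left of the dotted median of all genes, and the MHC class I median lies at 0.097 on its right.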

How the data were processed

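Per the labels' protocols, 200 ng of total RNA from a phenol and chloroform extraction entered each biotin labelling. RMA is the tool named in the submitters' processing notes, with no version. The deposited values are linear ratios to the 50K array: all 54675 of its values equal 1 within 1e-06. For the dividing step and a genome build, nothing is given in the sources used here. Coordinates and promoters are RefSeq's (GRCh38.p14).

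Of 54675 probe sets, 1801 with several symbols, 11777 not listed in the platform annotation and 62 controls, of which 56 are among those not listed, were left out. Log2 ratios of the 41091 others were averaged per gene, with no pseudocount and no filter on low values.

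Slopes on log2 of the cells plated and quadratic terms were fitted across all 19775 genes with limma 3.58.1 in R 4.3.3 (lmFit, eBayes, two-sided, Benjamini-Hochberg, threshold 0.05), with 4 and 3 residual degrees of freedom. Values after ± are the fits' standard errors. Pairs were tested by exact permutation. With no replicates the residuals mix dish, noise and departure from a line, and 6 arrays set the limit of precision. On simulated data with 19775 genes, the trend test recovered 82 of 100 genes with a slope of 0.25 and 98 of 100 with 0.5, and called 9 of 19575 unchanged genes. Slopes between 0 and 0.25, where most members lay in size, were not simulated, so recovery there is unknown. The curvature test recovered 163 of 200 genes with a quadratic term of 1.

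Values of every array are given for the inducible catalytic genes and their counterparts, for PSME1, PSME3 and PSME4, for the 2 steepest members and the one nearest 0 of each other role, and for the 2 with the smallest p for curvature. For other lists up to 2 genes with the largest slopes are described. POMP, B2M, TAP1, TAP2, KRT14, CD14 and the members that only have a slope were added after their values were seen. The promoters shown, the counts of stepwise genes and the 1.5-fold count were also chosen then. The members and lists were chosen with earlier results of these data known. Alternatives left out marked probe sets (identifiers ending in _x_at or _s_at), centred the arrays, used the cell number or its rank, set the 3 highest against the 3 lowest densities, estimated variances robustly, tested each probe set alone, and left out each array in turn.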

Additional observations from a re-analysis of the deposited data

How the results depend on the processing

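No paired analysis was possible because each density has 1 array. No filter on low values was run, as ratios carry no level. The count of 16 genes with a trend was 10 with the 3 highest against the 3 lowest densities and 7 without marked probe sets, which leave 32 of the 41 genes to test, and it lay between 8 and 18 when 1 array was left out. For the 15 falling genes these values were 9, 6 and a range of 7 to 17. For the 1 rising gene the count was 2 by rank, the second being PSMG4, whose slope came mostly from 1 probe set. This count was 1 to 2 with 1 array left out. Calls over all genes, 4220 of 19775 in the main fit with 2455 falling, also dropped. With the 3 highest against the 3 lowest densities they were 2259 of 19775, with 1351 falling. Without marked probe sets they were 2664 of 17098, with 1507 falling. Without 1 array they lay between 2388 and 3909 of 19775. Other settings kept the 3 counts within 1.5 times. Curvature gave 0 calls under each alternative run. The median slope of the constitutive genes, −0.051, was −0.019 without marked probe sets; the cause was not tested beyond the loss of genes.

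Of 234 alternative values for the 24 genes described by array, 202 kept direction and side of the threshold, 11 no longer passed, 6 newly passed and 15 changed sign, all of the last in genes that did not pass. These values leave out robust variances and the 3 highest against the 3 lowest densities. In the latter setting PSMA7 (adjusted p = 0.0541), PSMB7 (0.0942) and PSMC1 (0.0554) no longer passed. PSMB1 (0.00099) turned to −0.0045 with centred arrays, −0.013 by cell number and −0.0042 by rank, and lay between −0.043 and 0.018 with 1 array left out. PSMB2 turned to 0.0061 without marked probe sets. With 1 array left out, ranges were −0.029 to 0.027 for PSMA5, −0.041 to 0.0044 for PSMB2, −0.0017 to 0.072 for PSMB6, −0.15 to 0.019 for PSMB9, −0.0039 to 0.040 for PSMC2, −0.057 to 0.0069 for PSMD5 and −0.020 to 0.0049 for PSMD8. Among pairs, PSMB8 minus PSMB5 ranged from 0.061 to 0.14 and passed without 50K or 100K, PSMB9 minus PSMB6 from −0.15 without 50K to −0.048 without 800K, passing in neither, PSMB10 minus PSMB7 from −0.093 to 0.012, and PSME1 minus PSME3 from 0.42 to 0.57. The cause of these changes was not tested.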
